A study of Mus musculus with 42 samples.

Results

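C1qa, C1qb, C1qc, C4b and Serping1, which encode the recognition molecule of the classical complement pathway, one of its first substrates and its inhibitor, were followed in mouse macrophages of 2 ages over 1 day. They were taken by name from the deposited expression tables and are 5 of the 47643 genes listed there. RNA came from macrophages of aged (18 to 20 months) and young (2 to 3 months) C57BL/6 mice, with no genetic change or treatment named in the labels. Cells of both ages were taken at zeitgeber times (ZT, hours of the light cycle) 0, 4, 8, 12, 16, 20 and 24, with 3 libraries per age and time, 21 per age and 42 in all. The labels name neither the tissue of the macrophages nor how they were purified, and they do not tell whether the libraries of a group are separate mice. The p-values therefore measure the spread between these libraries, which may be technical.

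The classical pathway starts when C1q, carrying the proteases C1r and C1s, binds antibody on a target or other surfaces such as those of dying cells. C1s then cuts C4 and C2, and their fragments form the enzyme that cleaves C3. C1 inhibitor, the product of Serping1, takes C1r and C1s out of action. C1q is built from equal numbers of A, B and C chains, the products of C1qa, C1qb and C1qc, and is made mainly by macrophages, microglia and dendritic cells, whereas the liver makes most of the other components found in blood. C1q on dying cells also aids their uptake by phagocytes.

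The 3 C1q genes lie side by side on the minus strand of chromosome 4 (build GRCm38): C1qa (ENSMUSG00000036887) at chr4:136895917-136898803, C1qc (ENSMUSG00000036896) at chr4:136889804-136893065 and C1qb (ENSMUSG00000036905) at chr4:136880129-136886187. C4b (ENSMUSG00000073418) is at chr17:34728380-34743882 and Serping1 (ENSMUSG00000023224) at chr2:84765387-84775444, both also on the minus strand. All 5 are annotated as protein-coding. RefSeq promoter sequences of build GRCm38.p6, which run from 250 bases before to 50 bases after the transcription start, were found for 2 of the 5 genes. Those of C1qb and C1qc are shown, and none was found for C1qa, C4b and Serping1. The sequences shown cover chr4:136886151-136886450 for C1qb and chr4:136892865-136893164 for C1qc and are written 5′ to 3′ on the minus strand. Capitals mark matches to short recognition letters of macrophage or clock-related factors.
C1qb promoter: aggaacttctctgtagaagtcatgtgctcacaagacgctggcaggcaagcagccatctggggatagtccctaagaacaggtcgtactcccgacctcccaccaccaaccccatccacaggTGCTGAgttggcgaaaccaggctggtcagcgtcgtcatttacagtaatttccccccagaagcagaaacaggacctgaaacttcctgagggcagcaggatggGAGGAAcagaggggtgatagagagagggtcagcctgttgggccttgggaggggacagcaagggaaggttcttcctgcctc
C1qc promoter: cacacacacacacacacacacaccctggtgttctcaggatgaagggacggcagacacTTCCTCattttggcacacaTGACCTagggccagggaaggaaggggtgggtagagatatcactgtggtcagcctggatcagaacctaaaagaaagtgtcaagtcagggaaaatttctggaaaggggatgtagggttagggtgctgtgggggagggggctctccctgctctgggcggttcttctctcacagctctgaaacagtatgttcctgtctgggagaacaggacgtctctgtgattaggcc
In C1qb the capitals are TGCTGA, the core letters bound by MAF factors, at bases −131 to −126 from the start, and GAGGAA, the core of PU.1 sites, at −30 to −25. In C1qc they are the reverse complements of GAGGAA at −193 to −188 and of AGGTCA, letters bound by ROR and REV-ERB receptors, at −174 to −169. The E-box CACGTG, bound by the clock activators, had no match in either window. Searched on both strands, of 32851 promoters of the same length 19.5% held TGCTGA, 28.3% GAGGAA, 16.3% AGGTCA and 7.15% CACGTG. Motif matches did not overlap each other in these windows.

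Levels across ages are given in rescaled reads, that is reads per gene after all 42 libraries were put on 1 scale. A read in these 3′ end libraries marks the end of 1 transcript, so gene length does not enter a value. Reads in genes per library were between 4864402 and 15587030 in aged cells (median 8159784) and between 7433159 and 13574542 in young cells (median 9847012). All 7 macrophage markers were detected in every library of both ages. The lowest of them, Fcgr1, averaged 175 rescaled reads in aged and 156 in young cells. Lyz2 averaged 215752 ± 35531 rescaled reads in aged and 255415 ± 29059 in young cells, and Adgre1, a surface marker of mouse macrophages, 6188 ± 1142 in aged and 5900 ± 593 in young cells (SD, n = 21 each). By age Lyz2 (log2 fold −0.25) and Cd68 (−0.18) were called lower in aged cells and Cd14 (0.18) higher, and the other 4 were not called. The sum of the 7 markers had a median of 234060 in aged and 267781 in young cells. Most of that sum was Lyz2, so its difference with age mainly reflects that gene.

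All 3 C1q chains were lower in aged macrophages, C1qb most of all. C1qa had between 19375 and 40151 rescaled reads in the aged libraries, with a median of 29502, against 28029 to 41758 with a median of 35563 in the young. The ranges overlapped, yet 8 of the 21 aged libraries lay below every young one. C1qb had 4523 to 9840 rescaled reads in aged cells (median 6556), against 7448 to 9912 in young cells (median 8416). Here 16 of the 21 aged libraries were below the lowest young library. C1qc had 8092 to 19381 rescaled reads in aged cells (median 13410) and 13180.4 to 17696 in young cells (median 14819.7). In C1qc 10 aged libraries were below all young ones and 1 was above them all.

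**Figure D1:**
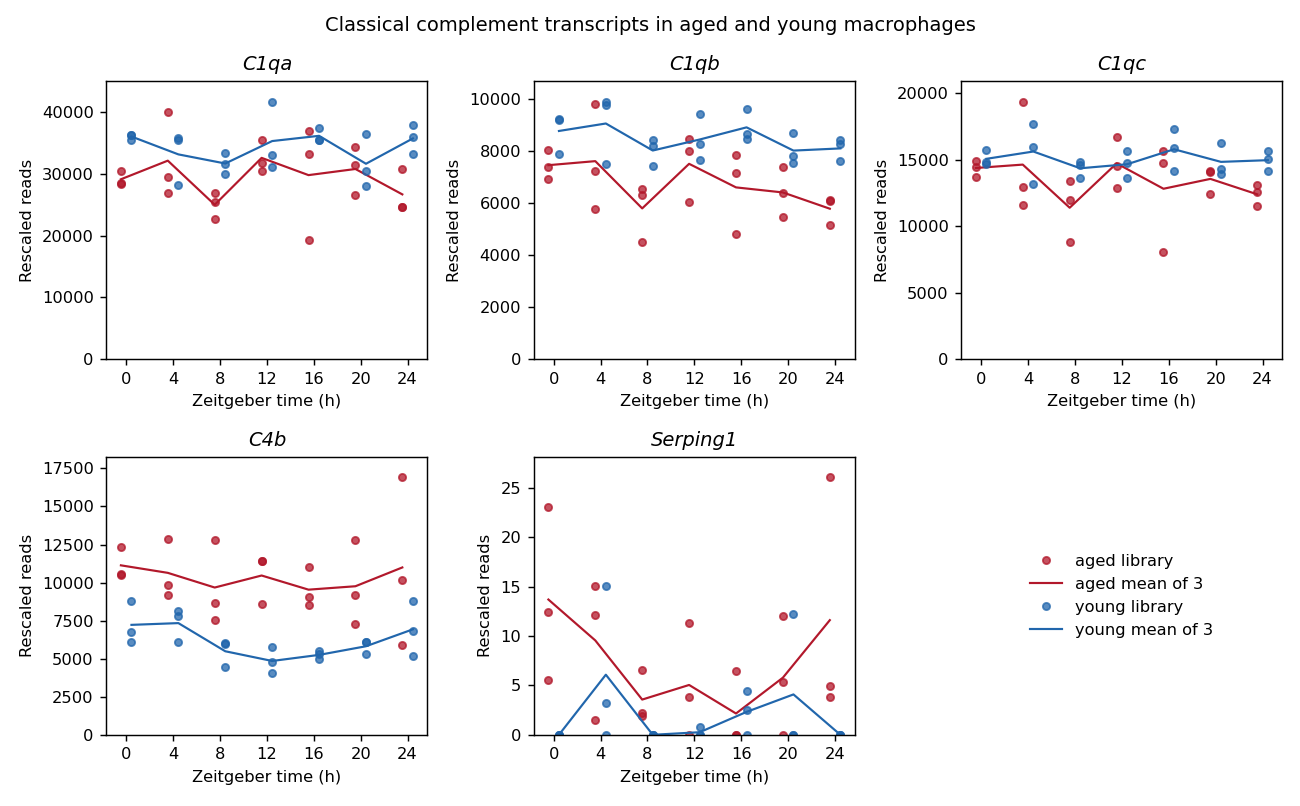
Rescaled reads (y axis, linear) of the 5 genes in each library by zeitgeber time (x axis, h), aged in red to the left of young in blue at each time; points are libraries and lines join the means of 3. The C1q chains lie lower in aged cells at most times, C4b lies higher, and Serping1 stays between 0 and 26.1 rescaled reads.

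Averaged over the day, C1qa was 29486 ± 4961 rescaled reads in aged and 34295 ± 3410 in young cells (SD, n = 21 each), a log2 fold of −0.23 ± 0.063 (SE; limma, adjusted p = 0.00537). C1qb was 6746 ± 1301 in aged and 8485 ± 786 in young cells, a log2 fold of −0.35 ± 0.062 (limma, adjusted p = 3.44e-05). C1qc was 13421 ± 2452 in aged and 15050.2 ± 1178 in young cells, a log2 fold of −0.19 ± 0.065 (limma, adjusted p = 0.0323). As ratios, aged cells had 0.852 of the young level of C1qa, 0.784 of C1qb and 0.879 of C1qc. Of the 5 genes 4 passed the filter on low values, which asks for a mean of at least 10, and all 4 were called at an adjusted p under 0.05, 3 lower and C4b higher. Over all 12109 genes tested 23.7% were called, 12.0% higher and 11.7% lower, and the median log2 fold was 0.0033. The log2 fold of C1qb stood at the 7.88 percentile of all genes, that of C1qa at the 13.1 and that of C1qc at the 16.7 percentile. In RNA of many cells, fewer cells that express a gene and less of its RNA per cell cannot be told apart.

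**Figure D2:**
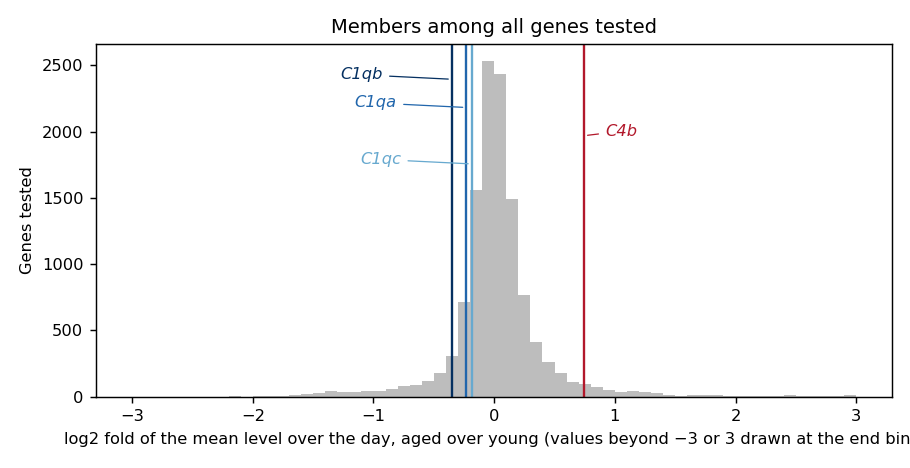
Number of genes (y axis) by log2 fold of the mean level over the day, aged over young (x axis), for the 12109 genes tested, with lines at the 4 members that could be tested. The C1q chains lie left of 0 between −0.35 and −0.19 and C4b lies at 0.74.

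The C1qc difference was the least secure of the 3. It lost its call when any of 8 of the 42 libraries was left out, with an adjusted p of at most 0.0618 (limma). Those libraries were aged ZT4 replicates 1 and 3, ZT8 replicate 2, ZT12 replicate 1 and ZT16 replicate 3, and young ZT4 replicate 3, ZT16 replicate 2 and ZT20 replicate 1, and the log2 fold without them was between −0.18 and −0.14. It was also lost without the ZT24 libraries, at −0.17 (limma, adjusted p = 0.103), and with no filter on low values (limma, adjusted p = 0.0815).

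A pair of aged libraries held the lowest C1q values. Aged ZT16 replicate 3 had the lowest C1qa (19375) and C1qc (8092) and, at 24275 rescaled reads, the highest sum of 5 monocyte markers, against 4814 to 14626 in the other aged libraries and 5669 to 9314 in young ones. Most of that sum was Chil3, a chitinase-like gene, at 17531 rescaled reads there. By age Plac8 (log2 fold 0.44) and Chil3 (1.28) of these markers were called higher in aged cells and Ccr2 (−0.92) lower. The monocyte sum had r = −0.585 with C1qc over the 21 aged libraries, and −0.049 without the 2 farthest. Over the 21 young libraries r was −0.355, and −0.415 without the 2 farthest (permutation test, adjusted p = 0.138 in aged and 0.445 in young cells). For C1qa r was −0.359 in aged and −0.464 in young cells, and for C1qb −0.541 in aged and −0.197 in young cells. Without the 2 farthest, these were 0.242 and −0.440 for C1qa and −0.228 and −0.347 for C1qb. None passed the adjustment over 90 relations (permutation test, adjusted p between 0.166 and 0.743 for C1qa and C1qb). Aged ZT8 replicate 2 had the lowest C1qb (4523) and the highest sum of 7 B cell markers, 18410 rescaled reads. Without both, the log2 folds were −0.18 for C1qa (limma, adjusted p = 0.0117), −0.30 for C1qb (limma, adjusted p = 8.11e-05) and −0.12 for C1qc (limma, adjusted p = 0.0986). The pair was picked after the data were seen, for its low C1q values. Leaving it out therefore had to bring the aged means closer to the young ones.

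RNA of other cell types also differed with age. All 7 B cell markers were higher in aged cells, with a sum of 4412 to 18410 rescaled reads (median 9150) against 4598 to 8350 in young cells (median 5981). Of 6 T cell markers tested 4 were higher, and none was lower. Dendritic cell markers, of a cell type that also makes C1q, went the other way, with 3 of 4 tested lower. Their sum was 148 to 432 rescaled reads in aged (median 258) against 312 to 635 in young cells (median 491). With the C1q chains this sum had r between 0.059 and 0.087 over the 21 aged libraries. Over the 21 young libraries r was between −0.138 and 0.081 (permutation test, adjusted p between 0.828 and 0.894 in the 2 ages). The part of these cells in the C1q difference with age was not tested. Of the mast cell markers 1 of 6 was lower, and of 5 neutrophil markers 1 was higher and 2 were lower. Over all genes 12.0% were called higher and 11.7% lower. No C1q chain had a relation with a marker sum that passed the adjustment over 90 relations. The strongest was C1qa with the B cell sum in young cells, at r = −0.629 (permutation test, adjusted p = 0.0657), against −0.232 in aged cells (0.702). C1qc had r = 0.608 with the macrophage sum, most of which is Lyz2, in young cells and 0.135 in aged cells (permutation test, adjusted p = 0.0801 and 0.828). The 10 markers of fibroblasts and mesothelium summed to 24.9 to 139 rescaled reads in aged cells and to 0 to 26.7 in young cells. Over all libraries 9 of the 10 were too low to test, and Dcn alone was tested and called higher in aged cells. Dcn, a matrix proteoglycan gene of fibroblasts, averaged 40.3 ± 20.3 in aged and 4.52 ± 5.91 rescaled reads in young cells (SD, n = 21 each). With the B, T and mast cell marker levels as covariates, the log2 folds were −0.13 for C1qa, −0.17 for C1qb and −0.058 for C1qc, with adjusted p between 0.201 and 0.789 (limma). With the fibroblast and mesothelium markers they were −0.058 for C1qa, −0.23 for C1qb and 0.023 for C1qc, with adjusted p between 0.343 and 0.953 (limma). The B cell sums of the ages overlap widely, but as all 7 of those markers were higher in aged cells, the fit shares part of the age difference with them. These fits call 1453 and 797 genes in all, against 2865 without a covariate. The fibroblast and mesothelium sums of the ages overlap between 24.9 and 26.7 rescaled reads alone, so that they and age can hardly be told apart. With the macrophage marker level as covariate, chosen after seeing the data, all 3 C1q calls held, at −0.23 for C1qa, −0.35 for C1qb and −0.18 for C1qc (limma, adjusted p between 1.09e-05 and 0.0199).

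At single times, with 3 libraries against 3, none of the C1q differences passed the test. Among all genes 0.793% were called at ZT0, 1.35% at ZT4, 4.01% at ZT8, 2.06% at ZT12, 1.07% at ZT16, 1.65% at ZT20 and 2.09% at ZT24. C1qa and C1qb had the lower mean in aged cells at all 7 times, which 8.86% of all genes showed. C1qb was lowest against young cells at ZT24, where the aged libraries had 5152, 6090 and 6126 rescaled reads and the young ones 8288, 7630 and 8416. All 3 aged libraries were below all 3 young ones there, as also at ZT8, ZT16 and ZT20. For C1qa this held at ZT0, ZT8 and ZT24, and for C1qc at ZT8 and ZT24. Over all genes 7.71% had this order at ZT0, 9.33% at ZT8, 6.41% at ZT16, 9.45% at ZT20 and 9.39% at ZT24. C1qc at ZT12 was the one C1q value with no lower mean in aged cells, at 14734 ± 1941 rescaled reads in aged and 14669 ± 996 in young cells (SD, n = 3 each).

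**Figure D3:**
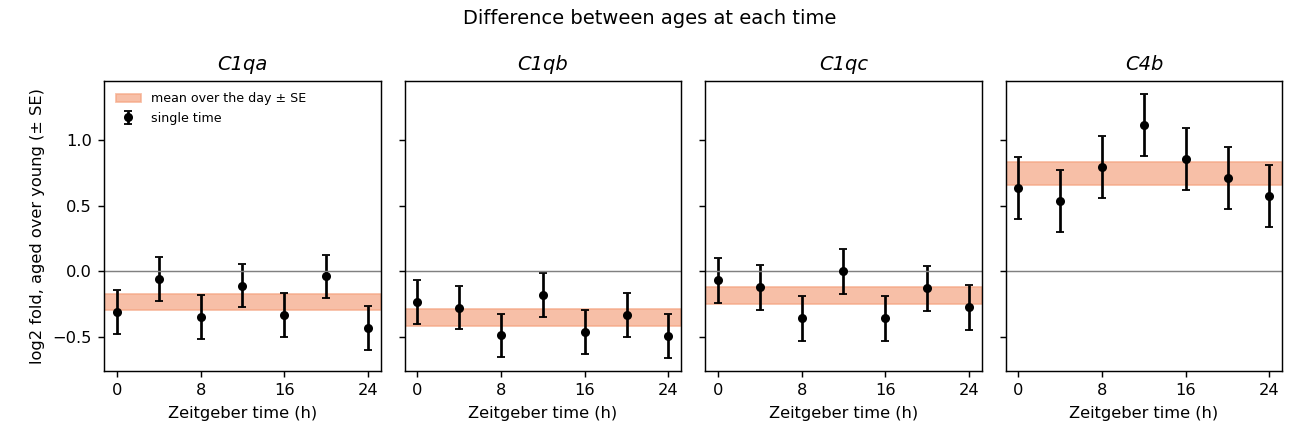
Log2 fold, aged over young (y axis), of C1qa, C1qb, C1qc and C4b at each zeitgeber time (x axis, h), with the SE of the fit over all libraries as bars and the mean over the day ± SE as a band. C4b is above 0 at every time and highest at ZT12 (1.11), while C1qa and C1qb are below 0 throughout.

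No C1q chain followed a 24 h rhythm that passed the test, in either age. The fitted peak-to-trough folds were 1.07 for C1qa, 1.02 for C1qb and 1.05 for C1qc in aged cells (limma, adjusted p between 0.959 and 0.997). In young cells they were 1.05, 1.01 and 1.03 (limma, adjusted p between 0.898 and 0.998), where the median over all genes was 1.21 in both ages. The test called 0.308% of 12016 genes in aged and 3.62% of 12113 genes in young cells. Ordered by mean, C1qa was highest at ZT12 (32636 ± 2668) and lowest at ZT8 (25031 ± 2100) in aged cells, and highest at ZT16 (36213 ± 1121) and lowest at ZT20 (31681 ± 4332) in young cells (SD, n = 3). C1qb ran from 7621 ± 2059 at ZT4 down to 5790 ± 552 at ZT24 in aged cells and from 9070.1 ± 1341 at ZT4 down to 8027 ± 614 at ZT20 in young cells. C1qc ran from 14734 ± 1941 at ZT12 down to 11394 ± 2366 at ZT8 in aged cells and from 15795 ± 1594 at ZT16 down to 14364 ± 611 at ZT8 in young cells. For every C1q chain in both ages, each time overlapped with the next in this order, in 6 of 6 neighbouring pairs.

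Pooled over the 7 times, the C1q chains varied more between libraries of the same age and time in aged cells. On the log2 scale the SD within groups of C1qc was 0.290 in aged and 0.122 in young cells, that of C1qb 0.274 in aged and 0.134 in young cells and that of C1qa 0.251 in aged and 0.143 in young cells. The aged-to-young ratio of these SDs was 2.38 for C1qc, at the 98.0 percentile of all genes, 2.04 for C1qb (94.9) and 1.76 for C1qa (89.5). Over all genes the median SD was 0.310 in aged and 0.269 in young cells, and 66.3% had the larger SD in aged cells. The larger spread was not seen at every time. In rescaled reads the SD of C1qc was 4161 in aged and 2281 in young cells at ZT4, 2366 and 611 at ZT8, and 4123 and 1594 at ZT16. It was 622 and 563 at ZT0, 1941 and 996 at ZT12, 962 and 1225 at ZT20, and 788 and 792 at ZT24. Aged ZT16 replicate 3 held the lowest and aged ZT4 replicate 2 the highest C1qc of the aged libraries.

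Because the chains are parts of 1 protein, their ratios within a library were compared, which the scaling between libraries does not touch. A ratio of read numbers is not a ratio of molecules, since the ends of different transcripts can be captured with unequal yield. C1qc was 199.9 ± 17.8% of C1qb in aged and 177.9 ± 9.88% in young cells (SD, n = 21 each), and it was higher in aged cells at 7 of 7 times. The log2 difference was 0.17 ± 0.033 (two-sided permutation test, p = 3.00e-05, adjusted over 3 ratios 9.00e-05). C1qb was 23.0 ± 2.91% of C1qa in aged and 24.8 ± 1.93% in young cells, a log2 difference of −0.12 ± 0.048 (permutation test, p = 0.0165, adjusted 0.0248), and it was lower in aged cells at 6 of 7 times. C1qc was 45.6 ± 4.23% of C1qa in aged and 44.1 ± 3.83% in young cells, a log2 difference of 0.045 ± 0.040 that did not pass the test (permutation test, p = 0.268). C1qb was thus lower in aged cells relative to both of its partner chains, while no difference in the ratio of C1qc to C1qa was detected.

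**Figure D4:**
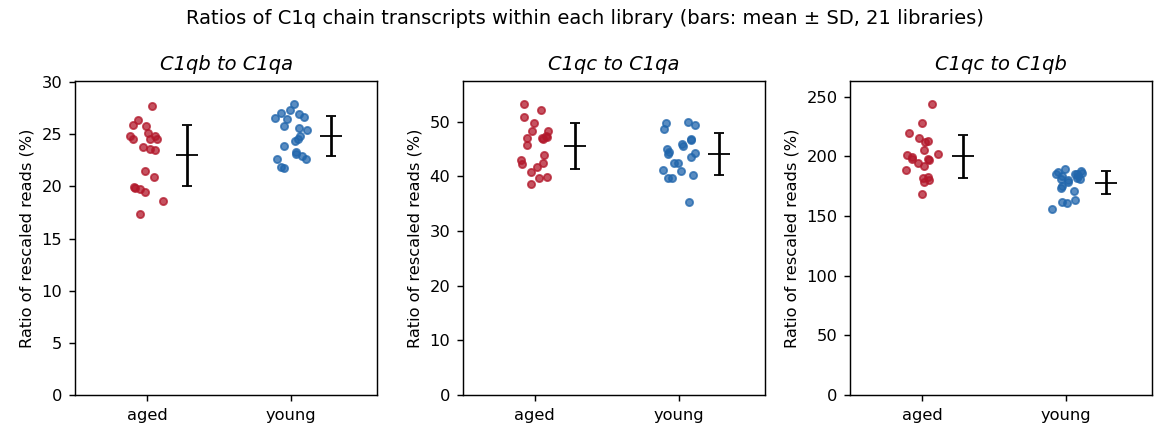
Ratio of the reads of one C1q chain to another within a library, in percent (y axis), by age (x axis), aged in red and young in blue. Points are libraries and bars are the mean ± SD of 21. C1qc relative to C1qb has the higher mean in aged cells, with values between 168 and 243% in aged and between 156 and 189% in young libraries.

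Within each age the chains rose and fell together from library to library. Between the 4 tested genes 12 relations were computed, and p-values were adjusted over them. C1qb and C1qc had Pearson r = 0.897 and Spearman rho = 0.883 in the 21 aged libraries (permutation test, p = 1e-05 for both, the smallest that 100000 resamples can give, adjusted 4e-05 and 0.00012). In the 21 young libraries r was 0.783 and rho 0.810 (permutation test, p = 1e-05 and 2.00e-05, adjusted 4e-05 and 0.00012). Without the 2 libraries farthest from the median of C1qb, r was 0.826 in aged and 0.732 in young cells. C1qa and C1qc had r = 0.876 and rho = 0.790 in aged cells (permutation test, adjusted p = 4e-05 and 0.00024), and 0.760 without the 2 farthest libraries. In young cells their r was 0.535 and rho 0.621 (permutation test, adjusted p = 0.0252 and 0.00658), and r was 0.376 without the 2 farthest, so that this relation rests in part on those libraries. C1qa and C1qb had r = 0.750 and rho = 0.634 in aged cells (permutation test, adjusted p = 0.00033 and 0.00658) and r = 0.674 and rho = 0.632 in young cells (permutation test, adjusted p = 0.00235 and 0.00658). C4b had no relation with any C1q chain that passed the test, with r between −0.078 and 0.0066 in aged and between 0.170 and 0.244 in young cells (permutation test, adjusted p between 0.430 and 0.987 over r and rho).

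**Figure D5:**
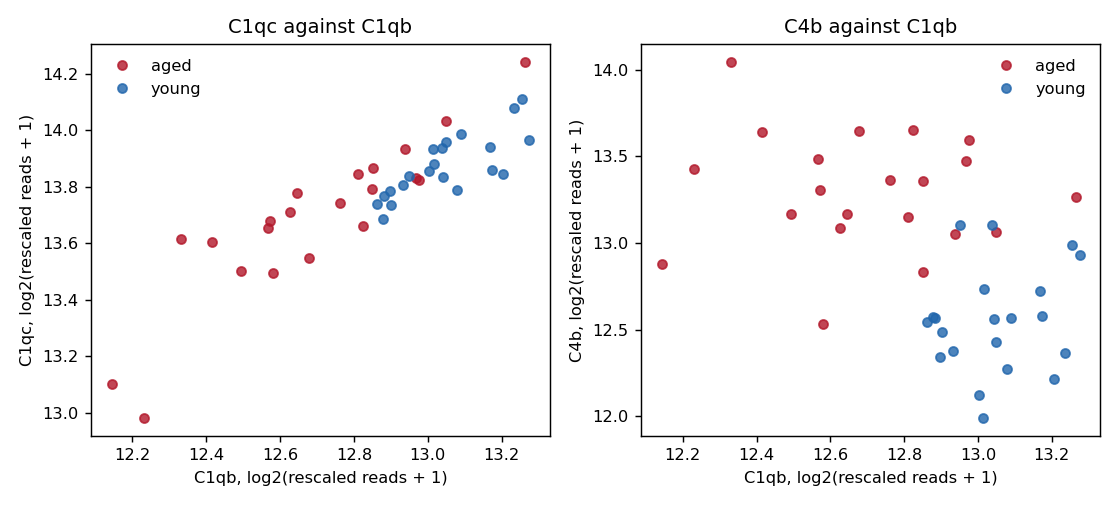
Log2 rescaled reads of pairs of genes in the same library, aged in red and young in blue, 1 point per library, with C1qb on both x axes. C1qc against C1qb falls along a line in both ages (r = 0.897 in aged, 0.783 in young), whereas C4b against C1qb does not (r = −0.078 in aged, 0.170 in young).

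Over all 42 libraries, with each age centred on its own mean, the genes most like C1qb were C1qc (r = 0.88), Ifitm3 (0.85), an interferon-induced antiviral membrane protein, Prdx5 (0.73), a peroxidase, C1qa (0.73) and Ifi204 (0.73), an interferon-induced gene. Those most like C1qc were C1qb, C1qa (0.80), the lysosomal protease gene Ctsb (0.74), Ifitm3 (0.67) and Ifi204 (0.67). C1qa was most like C1qc, C1qb, Ms4a6c (0.68), Ifitm3 (0.65) and Ctsb (0.63). These libraries share depth and cell makeup across genes, so the values describe likeness only. Of these companions Ms4a6c was called different in level with age, and it was higher in aged cells, with a log2 fold of 0.45 (limma, adjusted p = 0.00253). Ifitm3 had a log2 fold of −0.078 (limma, adjusted p = 0.471).

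C4b, which encodes complement C4, was higher in aged macrophages. It had 5927 to 16916 rescaled reads in aged cells, with a median of 10141, against 4064 to 8806 with a median of 6029 in young cells. Of the 21 aged libraries 15 lay above every young one. The means were 10315 ± 2441 in aged and 6128 ± 1325 in young cells (SD, n = 21 each), a fold of 1.675 and a log2 fold of 0.74 ± 0.089 (SE; limma, adjusted p = 2.62e-08). This stood at the 96.3 percentile of all genes. The call held with each library left out, where the log2 fold was between 0.69 and 0.80. It held with the fibroblast and mesothelium covariate at 0.87 (limma, adjusted p = 0.00224) and with the B, T and mast cell covariates at 0.90 (limma, adjusted p = 2.21e-06).

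The C4b difference had the same sign at all 7 times, as 8.52% of all genes did in this direction. It passed the test at ZT8, with a log2 fold of 0.79 ± 0.236, and at ZT12, with 1.11 ± 0.236 (limma, adjusted p = 0.0463 and 0.00472), where 4.01% and 2.06% of all genes were called. The ZT8 call was lost with replicate number as a block (limma, adjusted p = 0.0503) and with no filter on low values (limma, adjusted p = 0.122). At ZT12 the aged libraries had 11440, 8567 and 11387 rescaled reads and the young ones 4064, 4751 and 5735. At ZT8 the values were 12827, 7517 and 8682 in aged and 5977, 6029 and 4457 in young cells. At ZT0, ZT4, ZT16 and ZT20 too, all 3 aged libraries were above all 3 young ones, as at ZT8 and ZT12. Of all genes 7.79% had this order at ZT0, 9.42% at ZT4, 9.15% at ZT8, 9.16% at ZT12, 7.25% at ZT16 and 9.71% at ZT20. The ranges overlapped at ZT24, where aged libraries had 16916, 10141 and 5927 rescaled reads, the highest and the lowest of all aged values among them, and young ones 6805, 5183 and 8797. The ZT8 call was lost in 17 of 42 fits that left out 1 library. In 5 of them the library was of ZT8 (aged replicates 1 and 3 and young replicates 1 to 3), with an adjusted p of at most 0.283 (limma), and in the other 12 it was of another time, with an adjusted p of at most 0.0524 (limma). Without aged ZT24 replicate 3, the lowest aged value, C4b was also called at ZT16 and ZT24, with log2 folds of 0.85 and 0.95 (limma, adjusted p = 0.0226 and 0.00969), whereas without aged ZT24 replicate 1, the highest aged value, the ZT24 fold was 0.20 (limma, adjusted p = 0.905). The ZT12 call was lost without young ZT12 replicate 1 (limma, adjusted p = 0.0526).

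In young macrophages C4b followed a 24 h rhythm. Its mean was 7223 ± 1407 rescaled reads at ZT0, 7338 ± 1103 at ZT4, 5488 ± 893 at ZT8, 4850.1 ± 840 at ZT12, 5249 ± 287 at ZT16, 5817 ± 430 at ZT20 and 6928 ± 1810 at ZT24 (SD, n = 3). The values were thus high around lights-on and low around ZT12, though each time overlapped with the next in order of level. The fitted peak lay at ZT 1.46 ± 0.826 h (SE) with a peak-to-trough fold of 1.49 (limma, adjusted p = 0.00654). The call was lost when time was fitted as 7 free levels (limma, adjusted p = 0.0638), and it held with each young library left out. In aged cells the means were 11133 ± 1071 at ZT0, 10639 ± 1957 at ZT4, 9675 ± 2791 at ZT8, 10465 ± 1643 at ZT12, 9535 ± 1319 at ZT16, 9760 ± 2784 at ZT20 and 10995 ± 5544 at ZT24, and the fitted fold was 1.09 (limma, adjusted p = 0.955). The SD within groups was 0.392 in aged and 0.243 in young cells on the log2 scale. The difference in rhythm between the ages did not pass the test (limma over all 42 libraries, adjusted p = 0.999), and a different rhythm is therefore not shown. That test called 0 of 12109 genes (0.00%) with limma, 4 with edgeR and 7 with DESeq2, and 494 genes (4.08%) had an unadjusted p under 0.05 with limma. For the C1q chains its adjusted p was at least 0.999.

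Markers of large resident macrophages, among them Prg4 and Icam2, were set against C4b as a sum. In young cells the relation passed the adjustment by rank alone. The sum of 7 such markers had r = 0.696 and rho = 0.730 with C4b over the 21 young libraries (permutation test, p = 0.00059 and 0.00035, adjusted over 90 relations 0.0531 and 0.0315), and r = 0.624 without the 2 farthest libraries. Over the 21 aged libraries r was 0.294 and rho 0.269 (permutation test, adjusted p = 0.608 and 0.579), and r was 0.107 without the 2 farthest. Whether the ages differ in this relation was not tested. The sum ran from 35774 to 81258 rescaled reads in aged cells (median 63579) and from 35943 to 53775 in young cells (median 42809). In young cells 3 of its 7 markers were themselves rhythmic, against 3.62% of all genes. By age 4 of the 7 were called higher in aged cells and 2 lower, Icam2 (log2 fold −0.16) and Timd4 (−0.37), against 12.0% and 11.7% of all genes. Most of the difference in the sum was Cxcl13, a chemokine gene, with a mean of 18474 rescaled reads in aged and 3056 in young cells. The part of these cells in the C4b values was not tested. Genes most like C4b over all 42 libraries were Alox15, a lipoxygenase (r = 0.74), S1pr5, a sphingosine phosphate receptor (0.71), Hp, which encodes haptoglobin (0.70), Cd93 (0.69) and Timd4, a receptor for phosphatidylserine on resident macrophages (0.68). By age these genes were mixed. Hp, with a log2 fold of 1.26, and S1pr5, with 0.31, were higher in aged cells (limma, adjusted p = 1.09e-08 and 0.0147). Timd4 was lower (limma, adjusted p = 0.00098), and Alox15 (0.0075) and Cd93 (0.16) were not called (limma, adjusted p = 0.963 and 0.203).

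C4b has a close copy, C4a, which in the mouse encodes the sex-limited protein. In the last 500 bases of their longest annotated transcripts, 172 of the 451 runs of 50 bases (38.1%) are found in both, so reads could be split between the copies. C4a had 30.5 ± 12.8 rescaled reads in aged and 19.0 ± 8.13 in young cells (SD, n = 21 each), a log2 fold of 0.67 ± 0.226 (limma, adjusted p = 0.0262). Its level is a small share of that of C4b, and it has to be read as uncertain.

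Serping1 was close to absent from these libraries. Its 21 aged libraries held 148 reads in all and its 21 young libraries 41. In rescaled reads the aged libraries ran from 0 to 26.1 with a median of 5.37, and 4 were at 0, whereas the young ones ran from 0 to 15.0 with a median of 0, and 15 were at 0. The pooled level was 0.822 in aged and 0.200 in young cells, in reads per 1e6 reads in genes. At ZT0 the aged libraries had 12.5, 23.1 and 5.53 rescaled reads, and those of ZT24 had 3.83, 4.93 and 26.1. No young library of ZT0, ZT8 or ZT24 had a read. At the other times the ages overlapped, with means of 9.56 in aged and 6.09 in young cells at ZT4, 5.05 in aged and 0.260 in young cells at ZT12, 2.16 in aged and 2.32 in young cells at ZT16 and 5.79 in aged and 4.09 in young cells at ZT20. The means were 7.35 ± 7.39 in aged and 1.82 ± 4.15 in young cells, a difference of 5.53 rescaled reads (two-sided permutation test over libraries, p = 0.00326). The gene was below the filter, and in a fit of all 25110 genes with a read it was higher in aged cells at an adjusted p of 0.00354 (limma), 1.57e-05 (edgeR) and 0.000558 (DESeq2), tests added after the data had been seen.

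C1 inhibitor is made by the liver and by many connective tissue cells. Beside Serping1, the sum of the fibroblast and mesothelium markers was higher in aged cells, as given above, though only Dcn among them could be tested. Over the 21 aged libraries their sum had r = 0.635 and rho = 0.575 with Serping1 (permutation test, p = 0.0021 and 0.00743), which did not pass the adjustment over 90 relations (adjusted 0.0657 and 0.119), and r was 0.479 without the 2 farthest libraries. Over the 21 young libraries r was −0.149 and rho −0.065 (permutation test, adjusted p = 0.812 and 0.982). Aged ZT24 replicate 3 held both the highest Serping1 value and the highest marker sum, 139 rescaled reads. Which cells the Serping1 reads came from was not tested.

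The proteases that C1 inhibitor blocks were also scarce. C1ra averaged 137 ± 46.5 rescaled reads in aged and 96.6 ± 27.3 in young cells (SD, n = 21 each), a log2 fold of 0.47 ± 0.132 (limma, adjusted p = 0.00719). C1s1 was below the filter at 6.32 ± 5.57 in aged and 1.11 ± 2.74 in young cells, and C1rb and C1s2 were at 0 in 19 of 21 libraries of either age. C2, the partner of C4, averaged 22.6 ± 10.8 in aged and 14.1 ± 8.13 in young cells, a log2 fold of 0.70 ± 0.231 (limma, adjusted p = 0.0228).

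Among 44 other complement genes 20 could be tested, of which 7 were higher in aged cells, 3 were lower and 10 did not pass the test. Over all genes 12.0% were higher and 11.7% lower. The median log2 fold of the 20 was 0.11. Next to C1ra, C2 and C4a, the genes called higher were C3, the central component (log2 fold 1.38), Cfb of the alternative pathway (1.53), Cd55, which speeds the decay of the C3-cleaving enzyme (0.96), and Vsig4, a receptor for C3 fragments on resident macrophages (0.35). The 3 called lower were Fcna, a ficolin of the lectin pathway (−0.42), Itgax, a chain of a receptor for C3 fragments (−0.56), and C3ar1, the receptor for C3a (−0.13). Of these 20 genes 2 were rhythmic in young cells, Itgax and Vsig4, and none in aged cells, against 3.62% of all genes in young and 0.308% in aged cells. Cfp, which stabilises the C3-cleaving enzyme of the alternative pathway, had a log2 fold of −0.11 (limma, adjusted p = 0.122).

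Of 11 genes for proteins that bind C1q or take up what it coats, 9 could be tested. The 4 called higher in aged cells were the scavenger receptor gene Scarf1 (log2 fold 1.01), the inhibitory receptor genes Lair1 (0.75) and Cd33 (0.27) and the integrin gene Itgb1 (0.16). None was lower, and the median log2 fold was 0.16, where 12.0% of all genes were higher and 11.7% lower. Calr, whose product calreticulin binds C1q, had a log2 fold of −0.16 (limma, adjusted p = 0.0630) and was rhythmic in young cells (limma, adjusted p = 0.0021). C1qbp and Lrp1 had log2 folds of −0.079 and −0.072.

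Among transcription factor genes tied to macrophage or interferon programmes, Maf was lower in aged cells, at 3164 ± 753 rescaled reads in aged and 3910.2 ± 670 in young cells (SD, n = 21 each), a log2 fold of −0.32 ± 0.077 (limma, adjusted p = 0.00161). Irf1, with a log2 fold of 0.48, and Irf7, with 0.61, factors of the interferon response, were higher (limma, adjusted p = 0.00778 and 0.000678). Irf8 (0.051), Spi1, which encodes PU.1 (0.088), and Nr3c1, the glucocorticoid receptor gene (−0.023), were not called (limma, adjusted p between 0.256 and 0.775).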

How the data were processed

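The labels' protocols name a QuantSeq kit, and the submitters' processing notes name STAR, DESeq2 and mm10. The counter and the annotation are not stated. The authors deposited, for each age, a table of normalized signal per gene, in which every value is a number of reads over a size factor of the library (0.592 to 1.84 in aged and 0.769 to 1.43 in young libraries). The reads came back whole in 100% of values, within a tolerance of 0.001. The 3 libraries of an age and time follow the labels.

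To compare ages, the reads of the 42 libraries were jointly rescaled by the median of ratios. Values were analysed as log2(value + 1), with a mean of at least 10, by limma-trend (limma 3.58.1, R 4.3.3). Level contrasts came from 14 group means. Rhythms came from a cosine and a sine of 24 h within each table, and their difference from age by rhythm terms. P-values were adjusted by Benjamini-Hochberg over all genes, called under 0.05. Folds on this scale understate changes of genes with few reads. Alternatives were edgeR 4.0.16 and DESeq2 1.42.0 on the reads, other scalings, pseudocounts, filters, covariates and left-out libraries. EdgeR called 2876 and DESeq2 3055 genes different in level. Ratios, correlations and Serping1 were tested by permuting libraries (100000 resamples, scipy 1.17.1). Positions are those of GENCODE on GRCm38.

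The genes and lists were chosen with earlier results of these data known. All 5 genes, the 5 genes most like each by correlation, the regulators and the called complement genes of lowest p were named, and further genes of the lists were named after their values were seen. Some genes of the lists are not reported here. Without molecular identifiers, several reads can stem from 1 molecule. The tests of level and rhythm were checked on simulated data with level changes and rhythm amplitudes of log2 size 1. That is larger than the differences over the day and the rhythms fitted for these genes, so effects of their size were not checked.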

Additional observations from a re-analysis of the deposited data

How the results depend on the processing

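C4b kept its higher level in aged cells in all 42 fits that left out 1 library and in the 17 other settings (log2 0.72 to 0.90). C1qa and C1qb stayed called lower in aged cells in all such leave-outs (−0.26 to −0.19 and −0.38 to −0.32) and in 15 of the 17 settings. EdgeR and DESeq2 called all 4 tested genes. The exceptions were the B, T and mast cell covariates (−0.13 for C1qa, −0.17 for C1qb, −0.058 for C1qc, 1 of the 4 members and 1453 genes called) and the fibroblast and mesothelium covariate (−0.058, −0.23 and 0.023, 1 member and 797 genes called, against 2865). C1qc also lost its call with no filter (−0.19, limma adjusted p = 0.0815), without the ZT24 libraries (−0.17) and in 8 of 42 leave-outs (−0.22 to −0.14 over all 42). It was lost too without aged ZT16 replicate 3 and ZT8 replicate 2 together (−0.12), a pair picked for its low values after the data were seen. The cause was not tested. Scaling by total reads moved the calls to 1278 higher and 1645 lower, against 1448 and 1417.

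Of the level tests at single times 2 were called, 1 with no filter or with replicate number as a block (C4b at ZT8 was lost), and 1 to 4 when 1 library was left out. Differences near 0 changed sign. C1qc at ZT12 was −0.0087 (TMM), −0.020 (upper quartile), −0.029 (total reads) and −0.097 to 0.093 in leave-outs, which also turned C1qa at ZT4 (range −0.23 to 0.061), at ZT12 (−0.19 to 0.018) and at ZT20 (−0.12 to 0.067) and C1qc at ZT4 (−0.34 to 0.030). The replicate block changed no call over the day or in rhythm, and the numbers did not pair the libraries: deviations of same-numbered aged and young libraries correlated at −0.0841 to 0.0612, 0 of 21 pairs over 0.1, and 11 of 42 libraries correlated best with their own number.

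With 7 free time levels 0 members were rhythmic in young cells, against 1. Genes called rhythmic in young cells were 236 with no filter, 266 with a linear drift, 262 without ZT0 and 696 with DESeq2, against 438, and in aged cells 91 with DESeq2, against 37. Genes called different in rhythm, 0 in the fit reported, were 7 with pseudocount 5, 3 with 7 time levels, 5 with upper quartile scaling, 4 with edgeR, 7 with DESeq2, 4 without ZT0 and 0 to 6 in leave-outs. The Serping1 difference was 4.59 to 6.19 rescaled reads in leave-outs and at least 4.16 otherwise (permutation p up to 0.0328), and the C1q ratios kept their calls in all settings run. Depth limits Serping1, at 148 reads in aged and 41 in young cells, and 3 libraries per time limit single times.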
